A study of Mus musculus with 8 samples.

Results

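Cluster #e8 is a group of sinusoidal endothelial cells of the mouse liver. It holds the cells that the authors placed in cluster 8 of the endothelial cell dataset with the multilevel setting of pagoda2, and it comprises 155 of the 1106 endothelial cells and of the 3491 cells in all. The female pool contributed 120 of these cells and the male pool 35, so that 77.4% of the cluster was female. All 155 cells carry the annotation of a sinusoidal endothelial cell in the authors' table. The same annotation covers #e3 with 236 cells and #e5 with 151 cells, the 112 cells of #e6 are labelled lastSinusoid, and #e8 is set against these 3 clusters throughout.

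Sinusoidal endothelial cells line the capillaries between the portal tract and the central vein of a liver lobule. They are fenestrated, rest on hardly any basement membrane and clear waste molecules from the blood through scavenger receptors such as stabilin 1 and stabilin 2. Their gene expression is graded along the lobule: *Dll4*, *Efnb2* and *Msr1* are known for the portal side, *Wnt2*, *Rspo3* and *Thbd* for the central side, *Lyve1* for the middle of the sinusoid and *Kit* for its central part. Kupffer cells, the resident macrophages of the liver, sit inside the same sinusoids and touch this endothelium.

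The series holds 8 pools of cells, a male and a female pool for each of the endothelial, immune, mesenchymal and epithelial classes, and no replicate pool. The animals were healthy adult mice between 8 weeks and 1 year old, of the strain C57BL6/J or heterozygous for a reporter transgene (*Pdgfrb*-GFP, *Pdgfra*-H2bGFP, *Cspg4*-dsRED, *Acta2*-GFP or *Cldn5*-GFP) or for combinations of these, and the labels do not tie a cell to its mouse or strain. Endothelial cells were sorted on CD31, on VE-cadherin or on the *Cldn5*-GFP reporter into 384-well plates and sequenced by Smart-seq2, a method that reads whole transcripts of single cells, so that numbers of cells reflect the sort. Because the clusters were built from the same counts and each sex is a single pool, no test was made, and every difference given here is a description. Levels are CPM, the counts of a gene scaled to a common total of 1000000, of the counts summed over the cells of a cluster in a pool, without the ERCC spike-ins, and a ratio is the log2 of the CPM in #e8 over the mean CPM of #e3, #e5 and #e6, each with 1 CPM added. The female #e3 holds only 6 cells, and it carries the same weight in that mean as the larger clusters.

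Plates were unevenly filled. The #e8 cells came from 11 of 22 plates, and each plate held cells of a single sex. The female plate named F1 here gave 63 #e8 cells and the female plate F2 gave 52, while F3 and F4 gave 4 and 1. Of the male plates, M1 gave 14, M2 gave 8, M3 gave 6, M4 gave 3, M5 gave 2, and M6 and M7 gave 1 each. With the community setting of pagoda2, 120 of the #e8 cells fell in cluster #e12c, among them 57 from F1 and 52 from F2, and 30 fell in #e13c, among them 14 from M1, 7 from M2 and 6 from M3. The finer clusters thus divided #e8 largely by sex and plate. No cell name was shared between pools.

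The median number of counts per cell in #e8 was 95989 in the female pool and 150633 in the male pool, and this was the lowest median among the 8 endothelial clusters in either pool. The male rank rested on M1: without that plate the male #e8 median was 292561 counts, above #e5 with 180580 and close to #e6 with 292318. In #e5 the medians were 98596 (female) and 176891 (male), in #e6 306230 and 282140, and in #e3 365578 and 303731. On plate F1 the median was 88473 counts in #e8, 92628 in #e5 and 209862 in #e6, in the order seen over the whole pool. The male plates shared with #e5 had the reverse order, with 102946 counts in #e8 and 61119 in the 4 #e5 cells on M1, and 216582 and 70165 in the 4 #e5 cells on M3. After each female #e8 cell was thinned to 50000 counts, the median was 3421 genes, against 3003.5 in #e5, 2757.5 in #e6 and 2681.5 in #e3. In the male pool it was 2530 genes, against 2461 in #e5, 2794 in #e6 and 3003.5 in #e3. The female value was not even across plates, with a median of 3148 genes at 50000 counts on F1, where #e5 had 3018 and #e6 3124.5, and of 3988 on F2, the plate with 80 Kupffer cells. The median share of counts from mitochondrial genes was 1.21% (female) and 1.73% (male), and ERCC spike-ins took 2.03% and 1.67%.

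**Figure D1:**
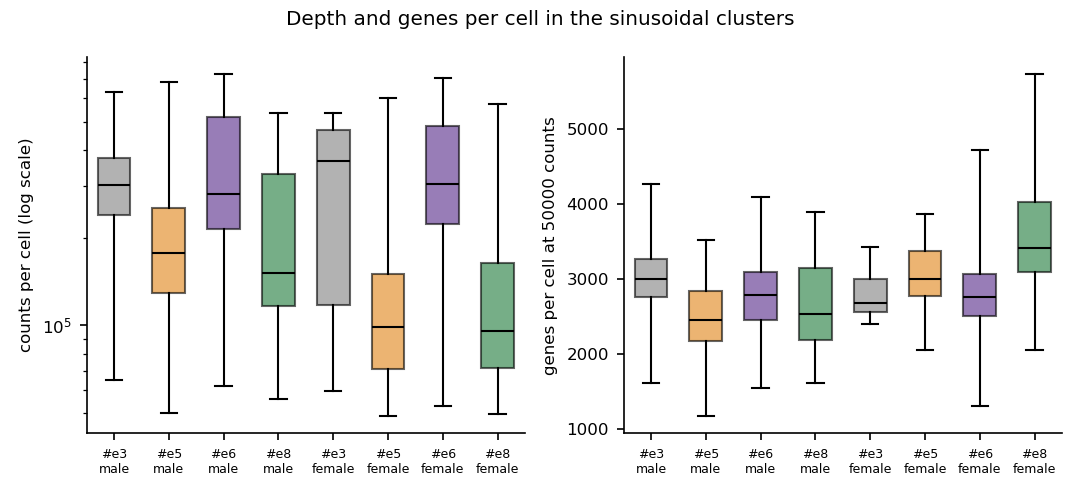
Counts per cell without spike-ins (left, log axis) and genes detected per cell after thinning to 50000 counts (right) for the 4 sinusoidal clusters in each pool. Boxes show quartiles, the line in the box the median and whiskers the full range over cells; female #e8 has the lowest median depth, 95989 counts, and the highest median of genes at equal depth, 3421.

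The sinusoidal markers were present. *Stab2*, which encodes the scavenger receptor stabilin 2 (GRCm38 chromosome 10, 86841194 to 87008038), stood at 4548 CPM (male) and 4317 CPM (female) in #e8, with exact Poisson 95% intervals of 4501 to 4596 and 4286 to 4349 that cover counting error only. The other sinusoidal clusters had 3210 (#e3), 3367 (#e5) and 611 (#e6) CPM of *Stab2* in the male pool and 2806, 3360 and 1443 CPM in the female pool. *Stab2* was thus at its highest in #e8 in both pools, and it was detected in 97.1% of male and 100% of female #e8 cells. Outside the sinusoid its level was 20.3 (male) and 10.2 CPM (female) in the central vein cluster #e1, and 279 and 228 CPM in the portal vein cluster #e2. Kupffer cells had 252 and 418 CPM. *Kit*, the receptor for stem cell factor (chromosome 5, 75574987 to 75656722), was at 1036 CPM in male #e8, between 717 CPM in #e3 and 1214 CPM in #e6, with #e5 at 433 CPM. In the female pool *Kit* was at 558 CPM in #e8, against 303 in #e3, 348 in #e5 and 1426 in #e6. *Lyve1*, a hyaluronan receptor (chromosome 7, 110850607 to 110862953), was at 357 CPM (male) and 279 CPM (female) in #e8, below #e5 with 699 and 454 CPM and #e3 with 499.7 and 325 CPM, and above #e6 with 19.9 and 2.32 CPM. In both pools *Kit* and *Lyve1* of #e8 thus lay between the levels of #e5 and #e6.

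Across a list of 22 sinusoidal genes, 13 were higher in #e8 than in the mean of the other clusters in both pools, 3 were lower in both, and none differed 2-fold in both. The list's median log2 ratio was 0.20 (male) and 0.37 (female), against −0.25 and 0.01 over all 9424 genes compared. *Aqp1*, a water channel, was at 3639 CPM in male #e8 with 1933 to 2672 CPM in the others, and at 5076 CPM in female #e8 with 2647 to 3531 CPM in the others. *Flt4*, the receptor for VEGF-C, was at 2298 CPM in male #e8 with 603 to 1004 CPM in the others, and at 1253 CPM in female #e8 with 502 to 1102 CPM. *Stab1*, the second stabilin, was at 3562 (male) and 3617 CPM (female), above every other sinusoidal cluster in both pools. *Mrc1*, the mannose receptor, lay within the range of the others, with 1751 and 1503 CPM. Of 16 genes shared by endothelial cells in general, 4 were higher and 6 lower in both pools, and none differed 2-fold in both.

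**Figure D2:**
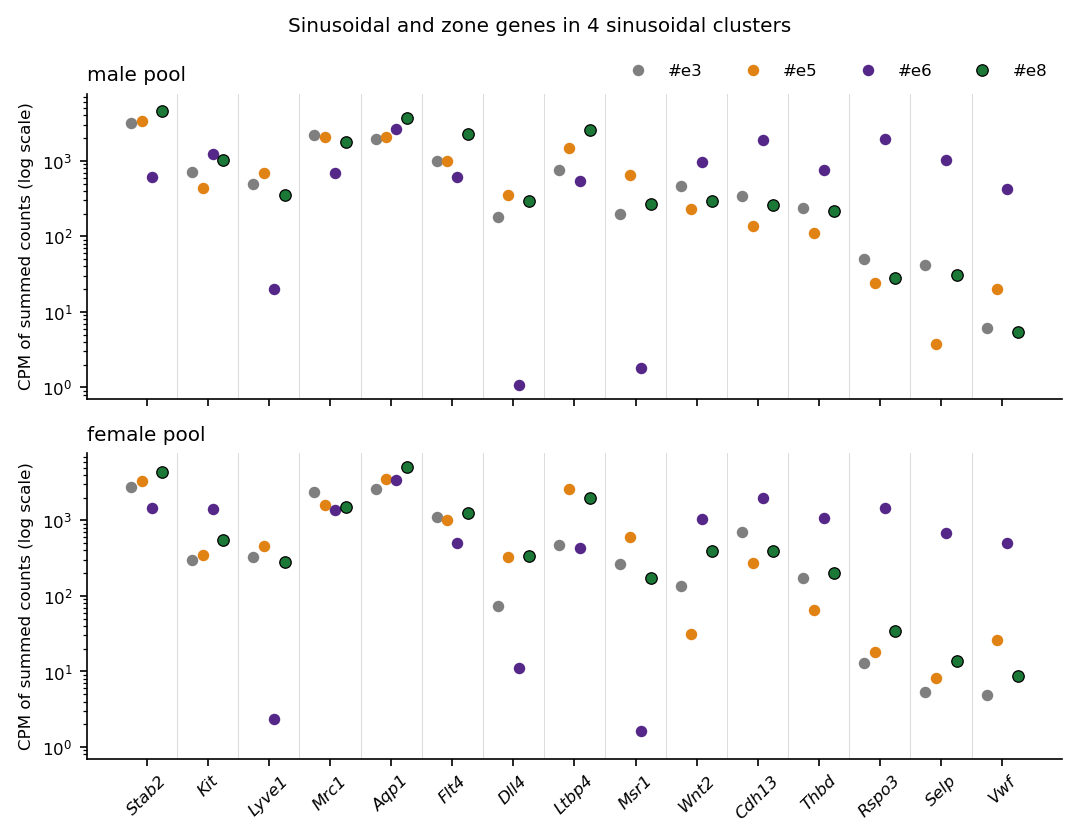
Levels of sinusoidal and zone genes (CPM of summed counts, log axis) in the 4 sinusoidal clusters, male pool above and female pool below. Each point is a sum over the cells of a cluster in a pool; #e8 (green, outlined) is highest for *Stab2*, *Aqp1* and *Flt4* in both pools and lies far below #e6 for *Rspo3*, *Selp* and *Vwf*.

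Genes of the central side were lower in #e8 than in #e6 but mostly not lower than in #e5. Their summed level was 1304 (male) and 1480 CPM (female) in #e8, against 1073 and 830 CPM in #e5. In #e3 it was 1708 and 1801 CPM, and in #e6 9933 and 8742 CPM. Of 14 such genes 13 were compared, all 13 were lower in #e8 than in the mean of the other clusters in both pools, and 10 were at least 2-fold lower in both, where 5.56% of all genes compared were. In most of them #e6 held the highest level of the other clusters. *Rspo3*, an enhancer of Wnt signalling released by central vein endothelium, was at 28.1 CPM (male) and 34.8 CPM (female) in #e8 and at 1964 and 1456 CPM in #e6, while #e5 had 24.3 and 18.3 CPM. *Bmp4*, *Edn1* (endothelin 1), *Selp* (P-selectin) and *Gpm6a* were likewise highest in #e6, with log2 ratios between −2.94 and −5.65. *Wnt2*, the Wnt ligand that central sinusoids supply to hepatocytes, was less reduced: it was at 294 CPM in male #e8 and 392 CPM in female #e8, against 229.8 and 31.4 CPM in #e5, 458 and 137 CPM in #e3 and 966 and 1032 CPM in #e6. Of 9 genes of the portal side, none differed 2-fold in both pools. *Ltbp4*, a latent TGF-beta binding protein, was at 2525 CPM in male #e8 and 2007 CPM in female #e8, with #e5 at 1463 and 2639 CPM and #e6 at 539 and 436 CPM. *Dll4*, a Notch ligand, was at 295 and 338 CPM in #e8, at 349 and 331 CPM in #e5, and at 1.07 and 11.2 CPM in #e6.

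Plate F1 allowed these clusters to be read side by side, since it held 63 #e8, 23 #e5 and 18 #e6 cells and no Kupffer cell of the authors' annotation. *Wnt2* was graded there, from 36.2 CPM in #e5 through 539.6 CPM in #e8 to 974 CPM in #e6, and it was detected in 56.5%, 84.1% and 100% of the cells. *Thbd*, thrombomodulin, took the same course with 97.8, 325 and 1527 CPM, *Cdh13*, T-cadherin, with 268, 537 and 2238 CPM, and *Rspo3* with 22.2, 71.1 and 1671 CPM. In the opposite direction, *Msr1*, a macrophage scavenger receptor also made by portal sinusoids, went from 521 CPM in #e5 through 163 CPM in #e8 to 1.08 CPM in #e6. *Ltbp4* went from 3229 through 1910.1 to 631 CPM, *Dll4* from 585 through 429 to 3.78 CPM, and *Lyve1* from 425 through 299 to 3.24 CPM. In all, #e8 lay between #e5 and #e6 on this plate for 5 of the 9 portal-side genes and for 9 of 13 central-side genes, where 43.8% of all 10645 genes at 10 CPM or more in any of the 3 did. The portal-side exceptions *Efnb1*, *Ntn4*, *Il2rg* and *Sox17* were lower in #e8 than in either. The remaining 4 central-side genes (*Bmp4*, *Edn1*, *Gpm6a* and *Fabp4*) were lower in #e8 than in either, although *Bmp4*, *Edn1* and *Gpm6a* were at most 4.53 CPM in both #e8 and #e5. Over whole pools the counts were 5 of 9 and 9 of 13 genes in the male pool (29.9% of all genes) and 5 of 9 and 9 of 14 in the female pool (44.4%). *Adgrg6*, an adhesion receptor from the portal vein list, was at 1.81 CPM on F1, level with 2.16 CPM in #e6, and at 94.2 CPM in #e5, where 6 of 23 cells had counts for it.

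**Figure D3:**
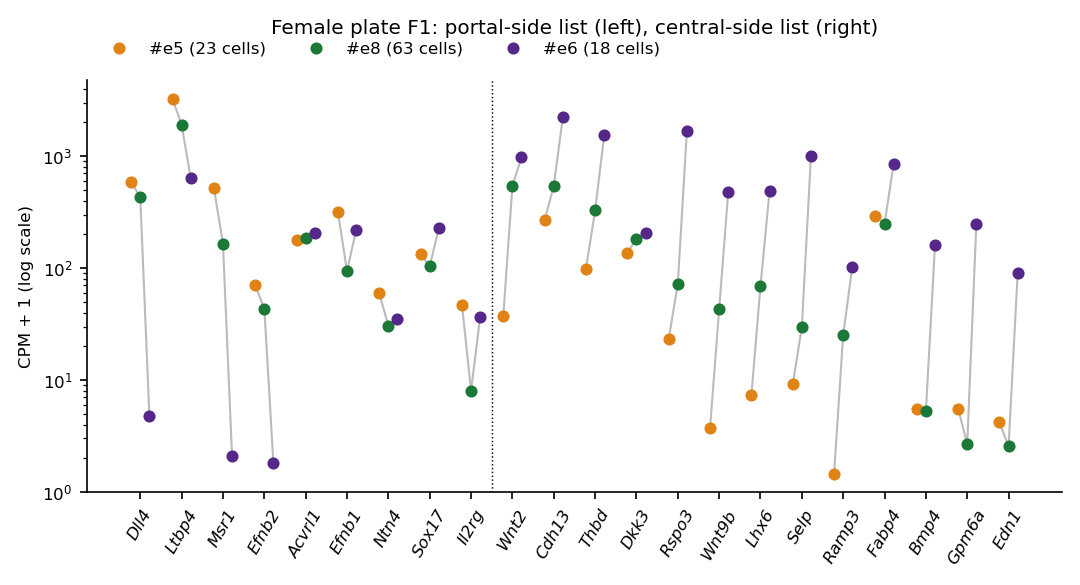
Levels on female plate F1 (CPM plus 1, log axis) of 9 portal-side genes (left of the dotted line) and 13 central-side genes (right) in #e5, #e8 and #e6, joined by grey lines. Each point is a sum over the cells of a cluster on the plate. For 5 of the 9 and 9 of the 13 genes #e8 lies between the other clusters, where 43.8% of all genes do. *Wnt2* is at 539.6 CPM in #e8, between 36.2 and 974 CPM.

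Over all genes at 10 CPM or more on either side in both pools, 344 of 9424 (3.65%) were at least 2-fold higher in #e8 than in the mean of the other clusters in both pools and 524 (5.56%) at least 2-fold lower; such genes are said to be called here. On F1 alone, #e8 was at least 2-fold higher than the mean of #e5 and #e6 for 2025 of 10098 genes (20.1%) and at least 2-fold lower for 1950 (19.3%), and of the 344 genes higher in both pools 265 could be compared there and 128 were among those 2025. Within the plates that held at least 5 cells on each side (F1 and M1), 622 of 7660 genes were higher and 389 lower in both pools, of which 61 and 69 were among the 344 and 524. Most of the 344 genes were sparse, and 148 of them were at 10 CPM or more in the mean of the other clusters in both pools, the rest having passed the filter only through #e8. Only 81 were detected in at least 30% of #e8 cells in both pools, and 144 of the 524 lower genes were detected in at least 30% of the other cells.

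Some of the higher genes are genes of Kupffer cells. A gene was called Kupffer-high if it was at least 4-fold higher in the Kupffer cells of the authors' annotation (115 male, 354 female) than in the mean of #e3, #e5 and #e6 in both pools. Of the 9424 genes compared, 244 (2.59%) were Kupffer-high, and of the 344 higher genes 80 (23.3%) were. Such genes are low in that mean, which is also the denominator of the #e8 ratio, and many reached 10 CPM only through #e8, as did 115 of the 244 and 65 of the 80, so these shares are in part fixed by the filter. Of the 129 Kupffer-high genes at 10 CPM or more in the mean of the other clusters in both pools, whatever their level in #e8, 15 (11.6%) were at least 2-fold higher in #e8 and 1 was lower, where 148 of all 8372 such genes (1.77%) were higher. With Kupffer cells set against the mean of the non-sinusoidal clusters #e1, #e2 and #e7 instead, 75 (21.8%) of the 344 genes were Kupffer-high; this definition and the filter on the other clusters alone were added after seeing the data. Of the 81 higher genes detected in at least 30% of cells, 9 (11.1%) were Kupffer-high, and of the 15 named by rank 6 were: *Laptm5*, a lysosomal membrane protein of leukocytes, *C1qa* and *C1qb* of the complement component C1q, *C4b*, a complement component with a close paralogue, *Lpl*, lipoprotein lipase, and *Apoc1*, an apolipoprotein. *Laptm5* was at 77.0 CPM (male) and 136 CPM (female) in #e8 and at 8.80 and 8.22 CPM in the others, yet on F1 it was at 1.17 CPM in #e8 and 47.1 CPM in the mean of #e5 and #e6.

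**Figure D4:**
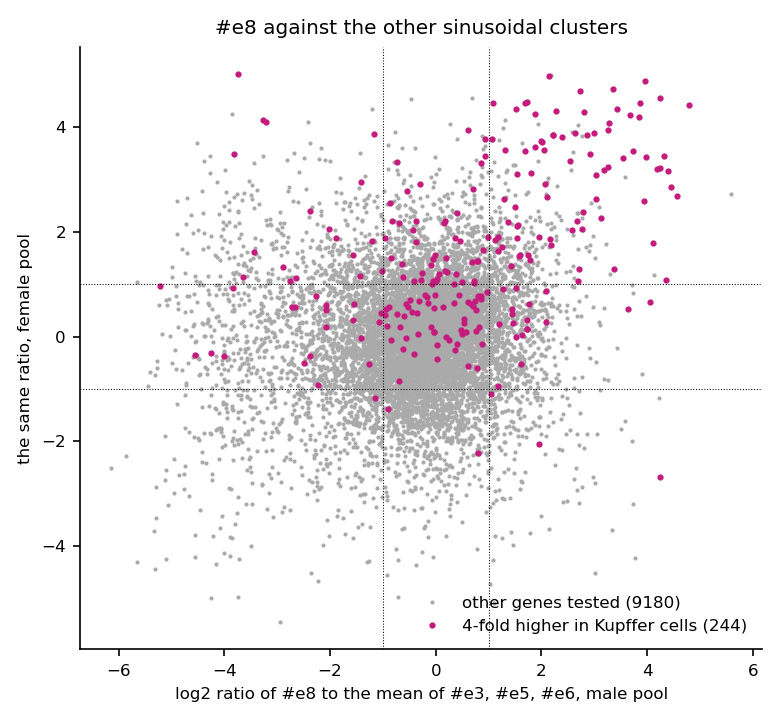
Log2 ratio of #e8 to the mean of #e3, #e5 and #e6 in the male pool (horizontal) and the female pool (vertical) for 9424 genes, with dotted lines at 2-fold. Of the 244 genes at least 4-fold higher in Kupffer cells (magenta), 80 lie in the upper right corner with 264 other genes, 65 of the 80 having passed the level filter only through #e8.

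The level of these transcripts differed by plate. Of 11 Kupffer cell genes, 10 were compared. These were at least 2-fold higher in #e8 in both pools, where 3.65% of all genes compared were. However, 5 of them were at 10 CPM only in #e8 in at least 1 pool and so had to be higher there. The other 5 (*Clec4f*, *Cd5l*, *C1qa*, *C1qb* and *Csf1r*) reached 10 CPM in the mean of the other clusters too, where 1.77% of all such genes were higher. *Marco*, which was not compared, had no count in male #e8 and 29.5 CPM in female #e8. The summed level of the 11 genes was 1343 CPM in male #e8, with 96.2 to 199 CPM in the other sinusoidal clusters and 36165 CPM in Kupffer cells. A few cells carried this male sum: the median per male #e8 cell was 0 and the highest value 17418 CPM, and 31.4% of the cells had counts for 3 or more of the genes, while male #e5 had a median of 72.8 CPM and 60 of its 120 cells with 3 or more. In the female pool the summed level was 1971 CPM in #e8, 79.4 to 238 CPM in the others and 29950.0 CPM in Kupffer cells. For single genes the level in #e8 ranged from 0% to 5.46% of that in Kupffer cells in the male pool (median 3.69%) and from 2.19% to 8.82% in the female pool (median 5.97%). On F1, which held no Kupffer cell, the 11 genes summed to a median of 16.03 CPM per #e8 cell, and to 17.3 CPM in #e5 and 11.1 CPM in #e6. On F2, with 80 Kupffer cells, the median was 2155 CPM, and all 52 #e8 cells had counts for 3 or more of the genes, with a median of all 11. *Clec4f*, a Kupffer cell lectin, was at 0.13 CPM in the #e8 cells of F1 and at 583 CPM in those of F2. The 36 epithelial cells on F2 had a median of 1464 CPM for the 11 genes as well. F3, with 274 Kupffer cells, had a median of 10750.1 CPM over its 4 #e8 cells. In the male pool the median was 0 on M1 (1 Kupffer cell), 29.4 CPM on M2 (none) and 328 CPM on M3 (6 Kupffer cells). On M7, with 45 Kupffer cells, the single #e8 cell had 136 CPM and the 12 other sinusoidal cells a median of 294 CPM. The 2 other sinusoidal cells on F2 lay on either side of the #e8 median. The #e3 cell had 526 CPM and the #e6 cell 8280 CPM. Single male cells stood apart on plates without Kupffer cells, at 17418 CPM on M2 and 8907 CPM on M6. Over the 64 female #e8 cells from plates without any Kupffer cell, *Clec4f* was at 0.12 CPM, whereas over the 14 such male cells it was at 254 CPM. *Stab2* was detected in every #e8 cell on F1, F2, M2 and M3 and in 92.9% of those on M1. What part RNA of Kupffer cells has in these values was not tested.

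**Figure D5:**
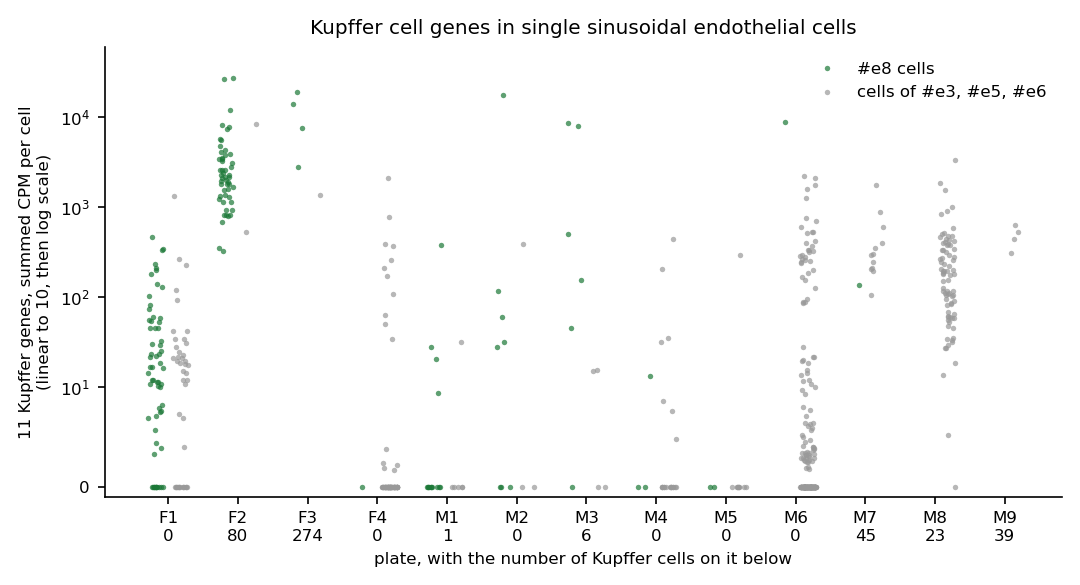
Summed CPM of 11 Kupffer cell genes per cell (vertical axis linear to 10, then log) for #e8 cells (green) and cells of #e3, #e5 and #e6 (grey) on the plates with #e8 or many sinusoidal cells. The number of Kupffer cells on each plate stands under its name; #e8 cells have a median of 16.03 CPM on F1 and 2155 CPM on F2.

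Antigen presentation genes of class II also differed by plate. Of 11 antigen presentation genes compared, *H2.Aa*, *H2.Eb1* and *Cd74* were at least 2-fold higher in #e8 in both pools, where 3.65% of all genes were, and the other 8 were not called; the dot stands for the hyphen of the gene symbol. *Cd74*, the invariant chain, was at 226 CPM in male #e8 with 43.3 to 83.2 CPM in the others, and at 321 CPM in female #e8 with 11.5 to 15.3 CPM in the others. By plate it was at 1.30 CPM on F1, 588 CPM on F2, 39.4 CPM on M1, 203 CPM on M2 and 249 CPM on M3. Without plates that held Kupffer cells the female log2 ratio was −1.43 for *H2.Aa*, −0.73 for *H2.Eb1* and −0.90 for *Cd74*. The male ratios were 3.07, 2.76 and 2.81 there. Within plates the mean ratio of *H2.Aa* and *H2.Eb1* turned sign. *Spp1*, osteopontin, which bile duct cells make, was at 10.6 CPM on F1 and 309.8 CPM on F2. The summed level of 17 hepatocyte genes was 727 (male) and 665 CPM (female) in #e8, with 274 to 800.5 CPM in the others. Of 12 compared, *Apoc1* was called higher (3.65% of all genes) and *Serpina1d* lower (5.56% of all genes). The 10 lymphocyte and leukocyte genes summed to 43.7 CPM in male #e8, with 15.9 to 38.1 CPM in the others, and to 73.3 CPM in female #e8, with 1.83 to 7.56 CPM in the others; on F1 the sum was 8.68 CPM and on F2 125 CPM. The 5 cholangiocyte genes summed to 4.86 CPM in male #e8 (others 2.55 to 43.5 CPM) and 157 CPM in female #e8 (others 7.93 to 40.3 CPM), with 12.04 CPM on F1 and 343 CPM on F2. *Spp1* alone made up 142 CPM of the female sum and 309.8 CPM of the sum on F2. The erythroid and platelet genes summed to 48.4 CPM (others 15.3 to 68.4 CPM) and 39.6 CPM (others 2.15 to 18.97 CPM), here with 72.9 CPM on F1 and 11.02 CPM on F2. These 3 lists were thus higher in female #e8 than in the other female clusters, and the part of such RNA in other results was not tested. The 12 stellate cell and fibroblast genes summed to 438 CPM (others 212 to 724 CPM) and 273 CPM (others 280.0 to 777 CPM), most of it *Ecm1*, and the 5 lymphatic genes to 19.5 and 7.94 CPM. Hardly any of these genes could be called, since 1 leukocyte, 1 cholangiocyte, 1 stellate, 0 lymphatic and 0 erythroid genes reached the level at which genes were compared, and 4 of the 10 lymphocyte and leukocyte genes were at 0 in male #e8.

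Among genes not Kupffer-high, 10 entries stood at least 2-fold higher in both pools and were detected in at least 75% of #e8 cells in both; those described next, and *X0610039K10Rik* and *Gm15564* of unnamed function, were singled out after their values had been seen. *Hspg2* encodes perlecan, a basement membrane proteoglycan (chromosome 4, 137468751 to 137570630). It was at 1930 CPM in male #e8 against 659 CPM in the others and at 977 CPM against 424 CPM in the female pool, and every #e8 cell had counts for it. On F1 it was at 1151 CPM in #e8, 704 CPM in #e5 and 689.7 CPM in #e6, so its excess there was under 2-fold. *Fscn1*, the actin-bundling protein fascin, was at 516 against 183 CPM (male) and 313 against 135 CPM (female), and on F1 at 351 CPM in #e8 against 109.6 CPM in #e5 and 45.4 CPM in #e6. *Tns3*, the focal adhesion protein tensin 3, was at 765 against 190 CPM and 339 against 138 CPM, and *Plod1*, a collagen lysyl hydroxylase, at 882 against 389 CPM and 425 against 210.0 CPM. On F1, *Tns3* was at 287 CPM in #e8 with 260.4 and 183.7 CPM in #e5 and #e6, and *Plod1* at 457 CPM with 214 and 316 CPM. *Srcap*, a chromatin remodelling ATPase, was at 458 against 118 CPM and 203 against 37.4 CPM, and on F1 at 242 CPM against 58.0 and 24.3 CPM. The table has a second entry under the same symbol with similar values, and reads could be divided between them, so its level is uncertain. *Glul*, glutamine synthetase, and *Mlxip*, a glucose-responsive transcription factor, were higher over whole pools, but on F1 *Glul* was at 125 CPM in #e8 and 177 CPM in #e5. Over the plates without any Kupffer cell, *Hspg2* (male log2 ratio 0.77), *Tns3* (female 0.88), *Mlxip* (female 0.57) and *Glul* (0.72 and 0.91) were under 2-fold, while *Fscn1*, *Plod1* and *Srcap* stayed above it in both pools. Of the 72 genes detected in at least 30% of cells, not Kupffer-high and higher in both pools, 28 were also at least 2-fold higher on F1.

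Genes named by rank also included *Adamtsl4*, *Hivep1*, *Nr4a1*, *Zfp217*, *Arl6ip4* and *Kcnk6*, with log2 ratios from 1.72 to 3.21. The mean ratio of *Kcnk6* turned sign within plates. On F1 *Kcnk6* was at 38.1 CPM in #e8, 27.6 CPM in #e5 and 5.13 CPM in #e6. *Zfp217*, a zinc finger protein, had 207 against 21.4 CPM (male) and 39.4 against 10.9 CPM (female). *Hivep1* was higher in both pools and lower on F1, where it was at 20.9 CPM in #e8 and 69.3 CPM in the mean of #e5 and #e6. *Nr4a1*, an early-response nuclear receptor, was at 420.1 CPM in male #e8 as a whole and highest on M1 at 1789 CPM, with 221 CPM on M2, 6.22 CPM on M3, 69.2 CPM on F1 and 53.8 CPM on F2. Without plates that held Kupffer cells, M1 among them, its log2 ratio was 0.81 (male) and 1.90 (female).

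Of the 15 genes named by rank as lower, *Bmp4*, *Vwf*, *Rspo3*, *Prss23* and *Selp* lead, followed by *Entpd1*, *Ctnnal1*, *Ubr1*, *Tspan13*, *Utp14a*, *Crip1*, *Tut4*, *Samd9l*, *Clk4* and *Cetn3*. *Vwf*, von Willebrand factor, was at 5.37 CPM (male) and 8.74 CPM (female) in #e8, with 420.2 and 509 CPM in #e6 and 2241 and 3017 CPM in #e1. *Prss23*, a secreted serine protease, was at 1.79 and 1.23 CPM against 111 and 28.5 CPM in the mean of the others. On F1 *Prss23* was at 2.33 CPM in #e8, 4.08 CPM in #e5 and 96.4 CPM in #e6. *Entpd1*, the ectonucleotidase CD39, was at 31.9 against 246 CPM in the male pool, 13.5 against 148 CPM in the female and 16.8 against 272 CPM on F1. The first 7 of these genes were at least 2-fold lower in #e8 than in the mean of #e5 and #e6 on F1 as well, with log2 ratios of −3.03 to −4.99. Most of that mean came from #e6, and against #e6 alone the ratios were −3.90 to −5.95. Against #e5 alone on F1 the log2 ratio was 1.64 for *Rspo3*, 1.69 for *Selp*, −0.07 for *Bmp4* and −0.47 for *Ctnnal1*. It was −0.61 for *Prss23*, −1.03 for *Vwf* and −1.26 for *Entpd1*. The later ones did not all hold there: *Samd9l* was at 23.1 CPM in #e8 and 21.8 CPM in the mean of #e5 and #e6, and *Cetn3*, a centrin, at 23.7 and 13.4 CPM.

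Of 16 scavenger and endocytic receptors, 9 were higher in both pools and 3 were lower in both. Only *Lrp1* was called higher, where 3.65% of all genes were. However, *Lrp1* passed the level filter only through #e8 in both pools and so had to be higher there, which leaves nothing to set against that share. *Lrp1*, a large endocytic receptor, is Kupffer-high and was at 94.9 against 4.27 CPM (male) and 35.4 against 2.97 CPM (female), but at 1.55 CPM on F1, 40.2 CPM on F2 and 286 CPM on M3. Of 21 genes of endocytosis and the lysosome, 11 were higher in both pools and 3 were lower in both. Only *Laptm5*, above, was called higher (3.65% of all genes). *Laptm5* too passed the level filter only through #e8 in both pools, so its call cannot be set against that share. *Ctsd*, cathepsin D, was at 1738 CPM in #e8 on F1 with 560.3 CPM in #e5 and 1349 CPM in #e6. Of 5 genes of fenestrae and caveolae compared, 4 were lower in both pools and *Cav1*, caveolin 1, was called lower (5.56% of all genes) with 47.0 against 96.3 CPM and 38.0 against 128 CPM. Without plates that held Kupffer cells its male log2 ratio was −0.42, under 2-fold. Of 15 angiocrine ligands compared, none was called higher and 4 lower, where 5.56% of all genes were (*Bmp4*, *Edn1*, *Rspo3* and *Wnt9b*, all of the central side). The ratio of *Wnt9b* turned sign within plates. On F1 *Wnt9b* was at 41.7 CPM in #e8, 2.72 CPM in #e5 and 478 CPM in #e6. *Bmp2*, which hepatocytes read as an iron signal, was at 892 and 894 CPM in #e8, within the range of the others in the male pool (469 to 1585 CPM) and above it in the female pool (499.7 to 689 CPM).

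None of 19 endothelial transcription factors compared was called in either direction, and 2 were higher and 6 lower in both pools. *Irf8*, an interferon regulatory factor that is Kupffer-high, had 97.1 CPM in male #e8 with 54.8 to 107 CPM in the others, 155 CPM in female #e8 with 13.4 to 46.1 CPM in the others, and on F1 149 CPM with 21.3 CPM in #e5 and 0.54 CPM in #e6. Of 8 nitric oxide and vasoactive genes compared, *Edn1* was called lower (5.56% of all genes). *Nos3*, endothelial nitric oxide synthase, was at 460.2 CPM in male #e8 with 172 to 229 CPM in the others and at 285 CPM in female #e8 with 59.0 to 288 CPM. Of 7 genes of coagulation compared, *Vwf* was called lower (5.56% of all genes). Of 10 genes of leukocyte adhesion, *Selp*, *Jam2* and *Alcam* were called lower (5.56% of all genes) and none higher (3.65%). *Jam2*, a junctional adhesion molecule, was at 309 and 318 CPM in #e8, within 258 to 770.4 CPM of #e3 and #e5 and below #e6 with 2155 and 1893 CPM. Of 5 portal vein genes compared, *Adgrg6* and *Vwf* were called lower, where 5.56% of all genes were.

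Response genes differed by plate. Of 22 immediate early and stress genes, 13 were higher and 4 lower in both pools, and *Nr4a1* was called higher (3.65% of all genes). Without plates that held Kupffer cells *Nr4a1* was under 2-fold in the male pool. The summed level of the 22 genes per #e8 cell had a median of 21599.5 CPM on M1, 12935 CPM on M3 and 6473 CPM on M2, against 4351 CPM on F1 and 6220.2 CPM on F2. On F1 the medians were 4969 CPM in #e5 and 9121 CPM in #e6, while the level of the counts summed over cells was 6880 CPM in #e8, 6510 CPM in #e5 and 9759 CPM in #e6. Of 7 male plates with cells of both clusters, the median was higher in #e8 than in #e5 on 5, with 2884 CPM in the 4 #e5 cells of M1 and 528 CPM in the 4 of M3, and lower on 2, with 910.1 against 1171 CPM on M5 and 1049 against 2216 CPM on M7. Some of these medians rest on few cells. There was 1 #e8 cell each on M6 and M7, 2 on M5 and 3 on M4, and M2 had 2 #e5 cells. Over the whole male pool the median was 11469 CPM in #e8, below the 13882 CPM of the 230 #e3 cells. Of 20 interferon response genes, 10 were lower in both pools, 2 were higher in both, and *Ifit3*, *Gbp3* and *Gbp7* were called lower, where 5.56% of all genes were. Within plates none of these 3 calls held, with mean log2 ratios of 0.17, 0.59 and 0.92. In the female pool this rested in part on the 6 cells of #e3, in which the 20 genes summed to 7707 CPM, against 3001 CPM in #e8, 3020 CPM in #e5 and 2952 CPM in #e6. Without #e3 the female log2 ratio was −0.97 for *Ifit3* and −0.11 for *Gbp7*, under 2-fold, and −1.70 for *Gbp3*. *Ifit3* was at 20.96 against 87.9 CPM (male) and 69.8 against 194 CPM (female), while on F1 it was at 85.9 CPM in #e8 with 47.1 CPM in #e5 and 44.6 CPM in #e6. Of 12 glycolysis genes compared, 4 were higher and 1 lower in both pools and none was called. All 9 mitochondrial transcripts compared were lower in both pools with median log2 ratios of −0.22 and −0.47, none by 2-fold, beside −0.25 and 0.01 over all genes. Of 6 cell cycle genes compared, *Tyms*, thymidylate synthase, was called lower (5.56% of all genes), with 4.47 against 13.0 CPM and 4.49 against 27.3 CPM.

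*Kit* and *Lyve1* were found together in single cells of #e8. At 50000 counts per cell, 60 of 119 female #e8 cells had counts for both (50.4%, exact Clopper-Pearson 95% interval 41.1 to 59.7% for counting error only), 41 for *Kit* alone (34.5%), 7 for *Lyve1* alone (5.88%) and 11 for neither (9.24%). In the female pool the share with both was 6 of 30 in #e5 (interval 7.71 to 38.6%) and 16.7% of 78 #e6 cells (9.18 to 26.8%), and 76.9% of the #e6 cells had *Kit* alone. Among 35 male #e8 cells, 12 had both (34.3%, 19.1 to 52.2%), 11 *Kit* alone (31.4%), 8 *Lyve1* alone (22.9%) and 4 neither (11.4%). Male #e3 had both in 47.0% of 230 cells (40.4 to 53.6%), male #e5 in 29.4% of 119 cells (21.4 to 38.5%) and male #e6 in 8.82% of 34 cells (1.86 to 23.7%). In the female #e3 it was 1 of 6 cells (interval 0.42 to 64.1%). Cells of a pool are not replicates, so these intervals do not compare the clusters. Without thinning the shares in #e8 were 60.8% (female) and 45.7% (male), and with a detection limit of 20 counts 19.2% and 25.7%. In Kupffer cells, which should lack both, *Kit* was at 4.73 (male) and 0.68 CPM (female) and *Lyve1* at 2.87 and 11.4 CPM.

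By its whole profile male #e8 was closest to #e3 and female #e8 to #e6. The Spearman correlation of log2 CPM across genes was 0.744 with #e3, 0.703 with #e5 and 0.613 with #e6 in the male pool (over 10492, 10478 and 10443 genes). In the female pool it was 0.756 with #e6, 0.661 with #e5, 0.655 with the portal vein cluster #e2 and 0.485 with the 6 cells of #e3. The correlation with Kupffer cells was 0.310 in the male and 0.464 in the female pool. Genes are not independent replicates, the clusters of a pool share plates and differ in depth, and these values are descriptive.

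Male and female #e8 cells differed widely in level, but sex, plate and mouse cannot be told apart here. Of 10326 genes at 10 CPM or more in either pool, 2299 (22.3%) were at least 2-fold higher in female #e8 and 2038 (19.7%) at least 2-fold lower. *Xist*, the long noncoding RNA of the inactive X chromosome, was at 489 CPM (female) and 0.51 CPM (male) in #e8, and the Y-linked *Ddx3y* was at 0.12 and 74.7 CPM, so the pools match their labels; none of the 5 sex-linked genes listed passed the level filter in both pools. *Tsix*, which is transcribed antisense to *Xist*, was at 64.6 CPM in the female pool and 0 in the male, but the sources used here do not state that strand was kept, and reads of the pair may be mixed. The other genes named as higher in female cells were *Spp1*, *Taz* and *Gm10800*, and those named as higher in male cells were *Serpina1e*, *Stag2*, *Tgfb1*, *Raver1* and *Egr1*. *Serpina1e*, a hepatocyte serpin with close paralogues, was at 50.9 CPM (male) and 1.72 CPM (female) in #e8, and likewise at 114 and 0 CPM in #e5 and 31.6 and 0 CPM in #e6. *Egr1*, an early growth response factor, was at 1437 and 212 CPM in #e8, while in #e5 it was at 109.7 and 220.2 CPM. By plate it was at 3738 CPM on M1, 1982 CPM on M3, 939 CPM on M2, 160.3 CPM on F1 and 307 CPM on F2. *Taz* was at 2.68 CPM (male) and 87.9 CPM (female) in #e8, while #e5 and #e6 had 87.4 to 119 CPM (male) and 73.6 to 91.3 CPM (female). *Tgfb1*, transforming growth factor beta 1, was at 85.5 CPM (male) and 11.3 CPM (female) in #e8 and also higher in male #e5, with 25.9 against 0.23 CPM.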

How the data were processed

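Cells of mouse liver were sorted into plates and sequenced by Smart-seq2 with single 50-base reads. The authors deposited raw counts per gene and cell without normalization; the submitters' processing notes name bcl2fastq, Bowtie, Bowtie2, Subread featureCounts, Seurat and GRCm38 (mm10). Doublets were gated out at the sort, and the authors removed cells with few counts, very many genes or signs of another cell type before deposit; no doublet caller was run. Sums exclude the 92 ERCC spike-ins. Clusters, annotation and plates come from the authors' cell table. Counts were summed per cluster and pool, scaled to CPM and compared with a pseudocount of 1 CPM among genes at 10 CPM or more; a gene was called at 2-fold in both pools. The procedure was tested on simulated data. Thinning kept 50000 counts per cell, drawn without replacement, and left out shallower cells. Intervals are exact at 95% and cover counting error only, since reads are not independent molecules. Sums, ratios and intervals used Python 3.11.15 with pandas 2.3.3, scipy 1.17.1 and numpy 2.4.6, and figures matplotlib 3.10.9; edgeR 4.0.16 in R 4.3.3 gave TMM factors only.

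The text names members of 27 gene lists, up to 15 genes in each direction with the largest smaller-of-both-pools ratio among called genes detected in at least 30% of the cells on the higher side, and up to 5 per sex detected in at least 50%. A gene that the rule names is not reported here. The cluster, the lists and the rules were chosen with earlier results of these data known. Coordinates are from RefSeq for GRCm38.p6. Alternatives were TMM scaling, no low-level filter, a pseudocount of 5 CPM, thinned cells, cells of at least 100000 counts, means over cells, summed other clusters, no #e3, within plates, without the plate with most #e8 cells, single pools, no thinning and a limit of 20 counts; leaving out plates with Kupffer cells, leaving out Kupffer-high genes and another definition of Kupffer-high were added after seeing the data.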

Additional observations from a re-analysis of the deposited data

Results flagged for a closer look

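In 3 genes of the lists the #e8 cells of the male and female pools differed from the mean of the other sinusoidal clusters by at least 2-fold in opposite directions; the difference was not tested, since each sex is a single pool with its own plates. *Vegfc*, a lymphatic growth factor, had a log2 ratio of 1.61 (male) and −2.76 (female), with #e8 levels of 103 CPM on M3, 13.1 CPM on M1 and 8.29 CPM on F1. *Ptgis*, prostacyclin synthase, had −2.89 and 1.34. *Spp1* had −1.81 and 3.02, and the female level came from F2, with 309.8 CPM there and 10.6 CPM on F1.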

How the results depend on the processing

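The counts of genes called higher and lower in both pools stayed within 1.5 times of 344 and 524 under TMM factors (326 and 608), the higher pseudocount (255 and 410), thinning (301 and 563), the depth limit (391 and 607), means over cells (298 and 541), summed other clusters (282 and 552), no #e3 (333 and 573) and without the fullest plate of each pool (381 and 673). Added after seeing the data, they were 342 and 687 without plates with Kupffer cells (134 and 340 of them shared with the original genes), 264 and 523 without Kupffer-high genes, and 148 and 524 with the level filter on the other clusters alone. Without the low-level filter they were 561 and 933, within plates 622 (with 389 lower), in the male pool alone 1596 and 2652 and in the female pool alone 1907 and 1881. Female-higher genes numbered 4441 without the filter. The male median depth was 292561 counts without M1. Female cells with both *Kit* and *Lyve1* made up 19.2% at 20 counts and 60.8% without thinning. TMM factors moved the median log2 ratio of all genes to −0.11 (male) and −0.03 (female). *Kit* and *Lyve1*, whose mean log2 ratios were near 0 (0.042 and −0.045), turned sign with the other clusters summed (−0.29 and 0.66), without #e3 (−0.17 and 0.14), in the female pool alone (−0.31 and 0.096), within plates (−0.46 and 0.23) and without plates with Kupffer cells (−0.22 and 0.21), and *Kit* alone with TMM factors (−0.025) and without the fullest plates (−0.14).

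Within plates the mean log2 ratio of both pools also turned sign for *C1qb* (−0.14), *Kcnk6* (−0.25), *Utp14a* (0.019), *Samd9l* (0.95), *Clk4* (0.012), *Cetn3* (0.070), *Wnt9b* (0.50), *Ifit3* (0.17), *Gbp3* (0.59), *Gbp7* (0.92), *H2.Aa* (−0.12), *H2.Eb1* (−2.13), *C1qc* (−0.45) and *Adgre1* (−0.040) and was 0 for *Timd4*, and it turned without plates with Kupffer cells for *Timd4* (−0.15); the cause was not tested. Without those plates the female ratio alone was below 0 for 8 genes called higher: *Folr2* (−1.50), *Laptm5* (−1.44), *H2.Aa* (−1.43), *Cd74* (−0.90), *Apoc1* (−0.88), *H2.Eb1* (−0.73), *C1qb* (−0.19) and *Lrp1* (−0.07). No paired analysis was possible because each sex is a single pool without replicates; the within-plate values compare cells of the same plates. Male values rest on 35 cells.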
